A study of Mus musculus with 16 samples.

Results

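Small RNA was sequenced from growing C2C12 cells that lack the miR-206 hairpin and both miR-1a hairpins, and from unedited C2C12 cells, and the miRNAs of these cells were compared. The comparison uses 8 of the 16 libraries of the series, 4 of the triple knockout (tKO) and 4 of the control, all in growth medium (GM). C2C12 are mouse muscle precursor cells, kept as a line, whose cells stop dividing and fuse once serum is reduced. The labels name the cells of every group C2C12 PAX7 NEG, grown in fetal bovine serum and harvested before they filled the dish. The tKO libraries come from clones C1 and C2 and the control libraries, labelled as wild type, from populations 1 and 2, each with biological replicates 1 and 2. A group is therefore 2 lines, each a clone or a population, sampled at 2 replicates, and not 4 independent lines. Its p-values measure the spread between these libraries. The other 8 libraries, of the same lines after 3 days in differentiation medium with horse serum (DM3), enter the statistical fit.

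A miRNA is cut from a hairpin in a longer transcript, and either arm of the hairpin, written 5p or 3p, can be kept. Bases 2 to 8 of the mature strand, the seed, pair with messenger RNAs and largely set which of them are repressed. miR-206 and miR-1 share a seed and are, with miR-133, the miRNAs best known for skeletal muscle. In myoblast cultures miR-206 is present before fusion and rises with it, whereas miR-1 is low until the cells differentiate.

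The 8 libraries held 512340 to 6543570 reads in control and 1237924 to 5992408 in tKO. Values are CPM, counts scaled to the total miRNA reads of the library. In CPM, 3 reads correspond to 0.458 to 5.86 in control and 0.501 to 2.42 in tKO, and this limit covers counting error only. Across names, 2 control libraries correlated in log2(CPM + 1) with r of 0.957 to 0.99, and 2 tKO libraries with r of 0.936 to 0.973, names not being independent replicates. Clone C1 replicate 2 stood apart: 6.49% of its reads came from sequences shorter than 18 nt, against 1.88% to 2.95% in the other 7 libraries. Where a median or count turns or moves by over 1.5 times without it, that value is given too.

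Of 881 names tested by edgeR's quasi-likelihood test with Benjamini-Hochberg adjustment, 12 passed an adjusted p of 0.05, or 1.36%. Of these, 6 names were lower in tKO (0.681%) and 6 were higher (0.681%). At an unadjusted p under 0.05 there were 76 names, and the libraries of the groups did not overlap for 72 names, or 8.17% (3.97% higher and 4.2% lower in tKO). The lower names were miR-206-3p, 2 names of miR-9-5p, and 3 of a repeated cluster (miR-669c-5p, miR-467b-5p, miR-467c-5p). The higher names were 2 names of miR-344d-3p, miR-344b-3p, 2 names of miR-129-5p, and miR-129-2-3p. Over all names the median log2 fold change was 0.12, and 59.6% of names were above 0. Without clone C1 replicate 2 the median was 0.03, with 484 of 923 names above 0.

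The paired names need a word. Where several hairpins encode a miRNA, the deposited tables keep the bare name for the full mature sequence and list shorter, longer or altered versions under the name of a single copy, such as miR-9-1-5p or miR-344d-3-3p. Of the reads under miR-9-1-5p, miR-344d-3-3p and miR-129-2-5p, 84.8% to 89.1% are found in every hairpin of the family. These names therefore show versions of a mature strand and not which gene was transcribed. For miR-129-2-3p, 89.9% of the reads are found in only some of the hairpins.

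The mature strands behind these calls, from RefSeq on GRCm38.p6, are shown because the seed, in capitals, decides which names belong together.
miR-206-3p: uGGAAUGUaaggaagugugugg
miR-9-5p: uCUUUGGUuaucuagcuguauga
miR-344d-3p: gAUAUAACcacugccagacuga
miR-344b-3p: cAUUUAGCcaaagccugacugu
miR-129-5p: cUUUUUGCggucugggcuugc
miR-129-2-3p: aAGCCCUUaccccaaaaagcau
No seed occurs in more than 1 of these strands. Of the other called names, the deposited sequences, written with T, give AAGTGCC as the seed of miR-467b-5p, AAGTGCG as that of miR-467c-5p and TAGTTGT as that of miR-669c-5p.

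**Figure D1:**
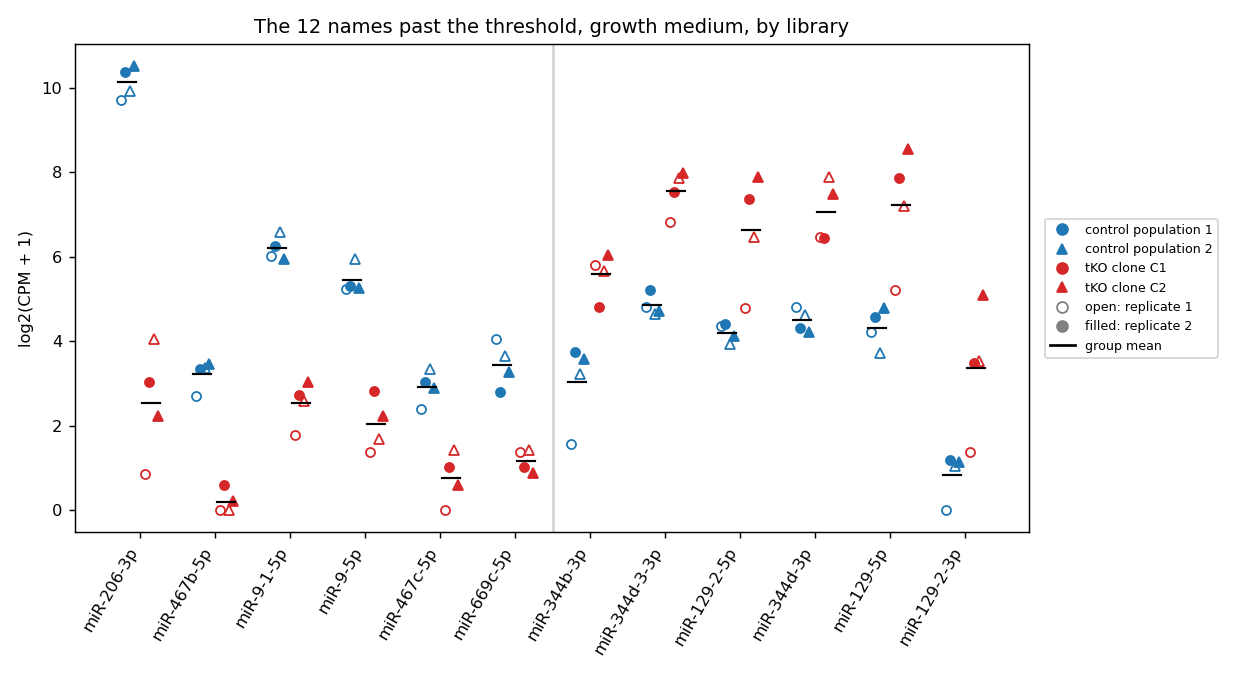
CPM of each of the 12 names past the threshold in the 8 growth-medium libraries, on a log axis, with 1 point per library and separate marks for the lines of each group. The lower names fall to 15.5 CPM or less in both clones, and the 6 higher names lie above the control range in every tKO library.

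The labels were checked on the deleted miRNAs first. miR-206-3p held 837 and 977 CPM in control populations 1 and 2 of replicate 1, and 1342 and 1466 CPM in those of replicate 2. In tKO it held 0.808 and 15.5 CPM in clones C1 and C2 of replicate 1, and 7.15 and 3.67 CPM in replicate 2. The highest tKO library was thus far below the lowest control library, so the miR-206 level went with the label in all 8. The mean fell from 1156 ± 297 (SD, n = 4) to 6.79 ± 6.38 CPM (SD, n = 4), with a log2 fold change of -7.49 (edgeR, SE 0.92, adjusted p = 7.94e-05). The 2-sided exact permutation test of the mean log2(CPM + 1) gave p = 0.0286, the smallest that 70 assignments allow.

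The residual reads were looked at one sequence at a time. Over the 4 tKO libraries 65 reads were listed under miR-206-3p, 48 of them at least 18 nt long and without a mismatch. In control the same count was 17849 of 19279 reads. A residue of intact miR-206-3p was therefore listed in the tKO libraries, between 0 reads in clone C1 replicate 1 and 24 in clone C2 replicate 1, and its source was not tested. The passenger strand miR-206-5p had 1.22 CPM or less in every library and was too low to test.

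The other deleted miRNA was almost silent in growing control cells, so its deletion cannot be read from these libraries. The 3 names of miR-1a together held 2, 17, 25 and 24 reads in the control libraries and 0, 3, 6 and 5 in the tKO libraries. Of the 68 control reads, 31 equalled the first 16 bases of miR-206-3p, a stretch that 0 of the 14 tKO reads matched. In the order of the control libraries above these were 2, 17, 11 and 1 reads. Reads of at least 18 nt without a mismatch numbered 11 in control and 4 in tKO. For miR-1a-3p under its own name the 2-sided exact permutation test gave a difference of -0.059 in mean log2(CPM + 1) (p = 1.0, n = 4 a group). With the copy names merged in, the exact permutation test gave -1.497 (p = 0.0286). The merging brings in the reads that equal the first 16 bases of miR-206-3p, together with other reads.

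The partners of the deleted hairpins belong to the miR-133 family, which represses genes of proliferation and smooth muscle. Mir133b lies 3686 bases from Mir206 on the plus strand of chromosome 1, at chr1:20682769-20682887, with Mir206 at chr1:20679010-20679082. Both hairpins lie in exons of the long non-coding RNA Gm28653 (GENCODE M21, GRCm38). The control mean of miR-133b-3p was 2.94 ± 2.23 CPM and its tKO mean 0.697 ± 0.552 CPM (SD, n = 4), and the 2-sided exact permutation test did not pass (difference -1.0, p = 0.1714), though it did without control population 1 replicate 1 (difference -1.566, p = 0.0286). miR-133a-3p, made beside both miR-1a hairpins, held 0.0907 CPM in control and 0.712 CPM in tKO on average (difference 0.599, exact permutation p = 0.0571). When copy names were merged into the mature name, the difference of miR-133a-3p turned to -0.921 (exact permutation p = 0.1429). Under its copy name miR-133a-2-3p, which the merged value includes, the strand averaged 8.77 CPM over the control libraries and 2.72 CPM over those of tKO (log2 fold change -1.83, edgeR adjusted p = 0.259). Among reads listed without a mismatch, miR-133b-3p had 0, 4, 17 and 23 reads in the control libraries and 0 in every tKO library, at least 11.1-fold lower over the pooled groups. On those reads edgeR called it (adjusted p = 0.00905).

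The rest of the muscle list held no call in the full tables. Of its 7 tested names 1 was called, miR-206-3p itself, against 1.36% of all names, while reads without mismatch gave 2 of 6, miR-133b-3p being the other, against 22 of all 551 names tested on those reads. In the full tables the list's median log2 fold change was 0.12, the same as over all names. The 2 medians were 0.14 and 0.03 without clone C1 replicate 2, and 0.18 and 0.22 with total counts. miR-486b-5p, from an intron of the ankyrin gene Ank1, held 125 CPM in control and 141 CPM in tKO (log2 fold change 0.12, edgeR adjusted p = 0.99). Its twin miR-486a-5p held 38.4 and 45.1 CPM (0.19, edgeR adjusted p = 0.962). miR-499-5p, from a myosin gene, held 2.36 and 3.09 CPM (0.47, edgeR adjusted p = 0.957), and 49.0% of its reads were shorter than 18 nt.

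Outside muscle, miR-9-5p showed the next largest loss among the called strands with RefSeq entries. miR-9 is best known from neural progenitors, where it limits proliferation and promotes neuron formation. The full mature sequence, under miR-9-5p, held 37.1, 61.1, 38.4 and 37.3 CPM in the control libraries. The tKO libraries held 1.62 and 2.22 CPM in clones C1 and C2 of replicate 1, and 6.13 and 3.67 CPM in replicate 2. All 4 tKO libraries were below all 4 control libraries, and which clone was the lower one differed between the replicates. The log2 fold change was -3.80 (edgeR, SE 0.50, adjusted p = 0.000117).

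The shorter and altered versions followed the full strand. miR-9-1-5p held 60.8 to 94.8 CPM in control and 2.42 to 7.18 CPM in tKO, a log2 fold change of -3.93 (edgeR, SE 0.55, adjusted p = 0.000185). Both names passed under every alternative that tested them, 25 of 25 and 24 of 24. Reads that begin at the mature start of miR-9-5p without a mismatch, whatever their name, came to 111 ± 23.9 CPM over the control libraries and 6.72 ± 1.91 CPM over those of tKO (SD, n = 4). Under the bare name of the other arm, miR-9-3p, at most 1.95 CPM were listed in any library, and it was not tested. Its means were 1.05 CPM in control and 0.125 CPM in tKO. The copy name miR-9-1-3p averaged 5.11 CPM in the control libraries and 3.53 CPM in tKO and did not pass (-0.36, edgeR adjusted p = 0.988). In tKO it ran from 0 in both clones of replicate 1 to 9.01 CPM in clone C2 replicate 2. Of the reads under miR-9-1-3p, 45.9% were shorter than 18 nt and 51.9% had a mismatch. Its level is therefore not that of the intact 3p strand alone.

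Mouse has 3 miR-9 hairpins on 3 chromosomes, and the 5p strand is the same from each. Mir9-1 lies at chr3:88215598-88215686 in an intron of the long non-coding RNA Gm3764. Mir9-2 lies at chr13:83738814-83738885 in an exon of C130071C03Rik. Mir9-3 lies at chr7:79505264-79505353 in an intron of its host Mir9-3hg. The reads cannot be assigned to 1 of the 3.

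The other losses were among the miR-467 and miR-669 names, which textbook annotation places with miR-466 in an intron of the mouse gene Sfmbt2, a Polycomb group gene, where many near copies lie in a row. miR-467b-5p held 5.53, 9.27, 9.18 and 10.1 CPM in control, 137 reads in all. In tKO it had 0 reads in both libraries of replicate 1, which allows up to 2.42 CPM in clone C1 and 1.67 CPM in clone C2, and 1 read in each library of replicate 2. The ratio of the pooled levels, control over tKO, was 52.1, with an exact 95% interval of 14.1 to 434 that covers counting error only. The fitted log2 fold change was -5.41 (edgeR, SE 0.67, adjusted p = 7.94e-05) and depends on the prior count that the fit adds. It passed under 22 of 22 alternatives.

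The other called names of this cluster were as low in number of reads. miR-467c-5p held 4.23, 9.17, 7.15 and 6.39 CPM in control and 0, 1.67, 1.02 and 0.501 CPM in tKO. Its log2 fold change was -3.21 (edgeR, SE 0.65, adjusted p = 0.0126). The call was lost without control population 2 replicate 1 (adjusted p = 0.0591) or clone C2 replicate 2 (adjusted p = 0.0984), both from edgeR. miR-669c-5p held 5.98 to 15.6 CPM in control and 0.834 to 1.67 CPM in tKO, and the groups did not overlap. Its log2 fold change was -3.10 (edgeR, SE 0.66, adjusted p = 0.0177). The call was lost without control population 2 replicate 1 (edgeR adjusted p = 0.0773), control population 2 replicate 2 (0.0534), clone C1 replicate 2 (0.0544) or clone C2 replicate 2 (0.119).

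Close relatives fell below the filter for testing but showed the same split of libraries. miR-467a-5p held 1.95, 7.38, 1.81 and 6.57 CPM in control and 0 reads in every tKO library. Against the 3-read limit of the pooled tKO libraries, 0.273 CPM, this is at least 17.2-fold lower in tKO. miR-669a-2-5p held 1.95, 7.38, 3.26 and 3.21 CPM in control and again 0 reads in tKO, at least 13.7-fold lower.

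Not every name of the cluster moved this way, and the names differ in what reads they hold. Of 6 tested names of the list, 3 were lower, against 0.681% of all names, and the median log2 fold change was -1.29. In tKO those 3 averaged 0.169 (miR-467b-5p), 0.797 (miR-467c-5p) and 1.28 CPM (miR-669c-5p), so they reached the test through their control reads. Of the listed names 98 had reads in GM, and the share and the median describe only names that passed the filter, not the cluster. Without clone C1 replicate 2 the median was -2.92, with 5 of 7 tested names below 0. In the fit of all libraries miR-466h-5p, miR-669i-3p and miR-467f-5p were above 0. In those 3 names a single sequence of 13 nt with a mismatch made up 97.9%, 95.7% and 78.5% of the reads. Counted over all listed names of the cluster, reads of at least 18 nt without a mismatch came to 39.2 to 53.2 CPM in control and 0 to 2.22 CPM in tKO. The mean went from 45.4 ± 5.88 to 0.724 ± 1.02 CPM (SD, n = 4). Reads of this kind were 25.5% to 49.0% of the cluster's reads in control and at most 3.9% in tKO. This count was added after the reads had been seen and carries no test.

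Among the gains, the lowest adjusted p values were those of the 2 names of the miR-344d-3p strand. The miR-344 hairpins form a cluster on mouse chromosome 7, beside the region whose human counterpart is imprinted and linked to Prader-Willi syndrome. The full strand held 27.3, 23.7, 18.9 and 17.6 CPM in the control libraries. In tKO it held 87.2 and 238 CPM in clones C1 and C2 of replicate 1, and 85.8 and 179 CPM in replicate 2. Clone C2 was the higher clone in both replicates, and both clones were above every control library. The log2 fold change was 2.75 (edgeR, SE 0.45, adjusted p = 0.00109).

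The name that holds the other versions of the strand behaved likewise. miR-344d-3-3p held 24.2 to 35.9 CPM in control and 113 to 252 CPM in tKO, a log2 fold change of 2.72 (edgeR, SE 0.37, adjusted p = 0.000169). Both names kept their calls without any single library. With either replicate number used alone, at 2 libraries a group, the edgeR adjusted p was between 0.0646 and 0.273. Summed over names, miR-344d-3p went from 50.7 ± 6.43 to 345 ± 131 CPM (SD, n = 4).

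miR-344b-3p has another seed but lies in the same cluster. It held 1.95, 8.43, 12.5 and 11 CPM in control and 54.9, 50.0, 27.1 and 65.4 CPM in tKO. The log2 fold change was 2.39 (edgeR, SE 0.52, adjusted p = 0.0199). The call was lost without control population 1 replicate 1 (edgeR adjusted p = 0.071), control population 2 replicate 1 (0.0849), control population 2 replicate 2 (0.0601) or clone C2 replicate 2 (0.0906), with log2 fold changes of 2.16 to 2.51.

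The 4 hairpins behind the called names lie on the minus strand, between 61683124 and 61790581 on chromosome 7. Mir344d-1 lies at chr7:61683124-61683192 and Mir344d-2 at chr7:61685272-61685351, in no other annotated gene. Mir344d-3, at chr7:61726249-61726328, and Mir344b, at chr7:61790519-61790581, lie in introns of the long non-coding RNA A230057D06Rik. All 8 tested names of the family were above 0, against 59.6% of all names, with a median log2 fold change of 1.79. The groups did not overlap for 5 of 8, against 8.17% of all names, and 3 of 8 passed the test, against 1.36%. These names are not independent, since versions of the same strand count apart. miR-344d-3-3p stands beside miR-344d-3p, and the leading sequence of miR-344-1-3p is miR-344-3p without its last base. miR-344-3p, which did not, held 18.1 CPM in control and 40.1 CPM in tKO (1.07, edgeR adjusted p = 0.254). miR-344d-3-5p, the other arm, held 4.43 and 18.3 CPM (1.86, edgeR adjusted p = 0.254), and its groups overlapped.

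miR-129-5p rose by the largest factor among the called names above 100 CPM in a group, and its tKO libraries were unequal. miR-129 is abundant in brain and has been described as a repressor of the kinase Cdk6. The full strand held 17.6, 12.1, 22.7 and 26.6 CPM in control. Clone C1 held 36.4 and 235 CPM and clone C2 held 147 and 376 CPM in replicates 1 and 2. The lowest tKO library was therefore only a little above the highest control library, and the others were far above it. The log2 fold change was 3.18 (edgeR, SE 0.68, adjusted p = 0.0177).

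Its other versions and its other arm moved with it. miR-129-2-5p held 14.2 to 20.1 CPM in control and 26.7, 87.2, 165 and 237 CPM in tKO (2.74, SE 0.61, edgeR adjusted p = 0.0237). miR-129-2-3p, the strand specific to 1 of the 2 hairpins, held 0, 1.05, 1.27 and 1.22 CPM in control and 1.62, 10.5, 10.2 and 33.1 CPM in tKO. Its log2 fold change was 3.54 (edgeR, SE 0.82, adjusted p = 0.0292). The name miR-129-1-3p, of the other copy, was not tested, with means of 0.456 CPM in the control libraries and 2.92 CPM in tKO. Of its reads, 64.9% are found in both hairpins and 23.4% in only 1 of them. Most of them therefore do not show which copy was transcribed. Mir129-2 lies at chr2:94241364-94241453 on the minus strand, in an intron of Mir670hg, and Mir129-1 at chr6:29022619-29022691 in an exon of Gm3294.

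The 3 miR-129 calls rested on every control library. Each was lost when any of the 4 control libraries or clone C2 replicate 2 was left out. Over these 5 fits the edgeR adjusted p was 0.0518 to 0.0945 for miR-129-5p, 0.0748 to 0.122 for miR-129-2-5p and 0.0759 to 0.222 for miR-129-2-3p. The log2 fold changes in the same fits stayed between 2.18 and 3.64. With replicates summed per line, miR-129-2-3p and its seed family also missed the threshold (edgeR adjusted p = 0.057 and 0.0626).

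**Figure D2:**
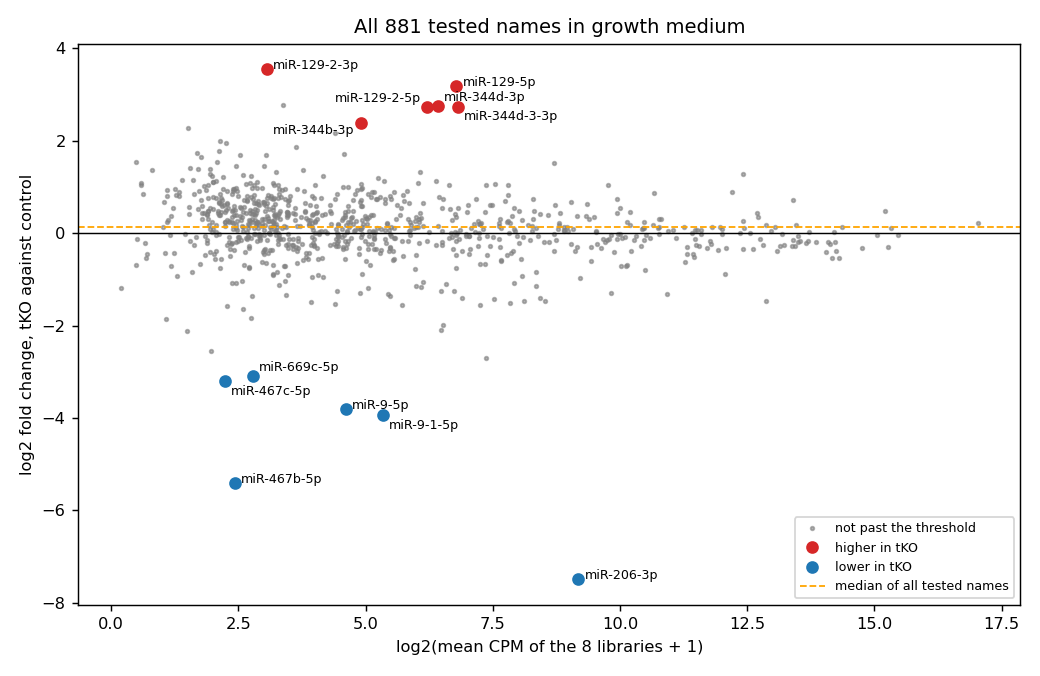
Log2 fold change, tKO over control in growth medium, of the 881 tested names against their mean level in log2 CPM, with the 12 called names marked. The called names lie far from the bulk, and miR-206-3p is the lowest at -7.49.

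Grouping by seed asks whether the pool of miRNAs that can read a given target site changed. Counts were summed over all names with a seed, 681 seed families were tested, and 10 of them, 1.47%, were called, 6 lower (0.881%) and 4 higher (0.587%). Of all families 64.3% were above 0 and 35.7% below it, and the groups did not overlap for 8.37% (4.26% higher and 4.11% lower). The seed GGAATGT of miR-1 and miR-206 fell from 1161 to 7.83 CPM (log2 fold change -7.29, SE 0.76, edgeR adjusted p = 3.63e-06). The sum covers the names with an assigned seed, which leaves out miR-1a-2-3p with a further 0.35 CPM in tKO.

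The remaining families restate the names, with additions. CTTTGGT, the seed of miR-9-5p, fell from 117.5 to 8.46 CPM (-3.92, edgeR adjusted p = 0.000167). AAGTGCC fell from 13.8 to 0.717 CPM (-4.13, edgeR adjusted p = 0.000286). This seed joins miR-467a and miR-467b to miR-290a-3p and miR-292-3p of the embryonic stem cell cluster, and the fall is that of the miR-467 names given above. GTTGTGT, shared by miR-669a-2, miR-669f, miR-669l and miR-669p, fell from 5.71 to 0.55 CPM (-3.43, edgeR adjusted p = 0.0123), while its names were each too low to be tested alone. That call was lost without control population 1 replicate 2 (edgeR adjusted p = 0.0512), control population 2 replicate 1 (0.0786) or 2 (0.0594), or clone C2 replicate 2 (0.1). The seed of miR-467c-5p fell by 3.33 and that of miR-669c-5p by 3.11 on the log2 scale (edgeR adjusted p = 0.00593 and 0.0123). Without clone C2 replicate 2 neither passed (0.0798 and 0.1), nor did that of miR-669c-5p without control population 2 replicate 1 (0.0642).

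ATATAAC, which miR-344d shares with miR-344e and with miR-410-3p of another cluster, rose from 51.4 to 346 CPM (2.74, edgeR adjusted p = 0.000343). TTTTTGC of miR-129-5p rose from 37.4 to 328 CPM (2.98, edgeR adjusted p = 0.0123). ATTTAGC of miR-344b-3p rose by 2.42 and AGCCCTT of miR-129-2-3p by 3.16 on the log2 scale (edgeR adjusted p = 0.0188 and 0.0243). For AGCCCTT the libraries of the groups overlapped. The calls for the seeds of miR-129-5p, miR-344b-3p and miR-129-2-3p were each lost without any 1 of the 4 control libraries or clone C2 replicate 2, with an edgeR adjusted p of 0.0594 to 0.329.

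Below these calls lay 26 names of at least 100 CPM whose groups did not overlap but whose adjusted p missed the threshold, 9 higher and 17 lower in tKO. Over all 881 names, at any level, the groups did not overlap for 3.97% higher and 4.2% lower in tKO. Of the 26 names, the 6 with the largest fold change on each side are given as values. Some of these passed under other settings: of 25 alternatives, miR-883a-3p passed in 10, miR-224-5p in 8, miR-139-5p and miR-465c-3p in 4 each and miR-10a-5p in 3, and miR-509-5p passed in 8 of 23. In the fit of the 8 GM libraries alone, the edgeR adjusted p was 0.0376 for miR-10a-5p, 0.0278 for miR-224-5p and 0.0072 for miR-509-5p. miR-10a-5p, from the Hoxb cluster, held 2108, 2859, 3840 and 3551 CPM in control and 6081, 9082, 6508 and 9521 CPM in tKO (1.28, edgeR adjusted p = 0.299). miR-224-5p held 487 to 658 CPM in control and 1005 to 1361 CPM in tKO (1.04, edgeR adjusted p = 0.0975). Its hairpin lies at chrX:72261031-72261112 in an intron of Gabre, a GABA receptor subunit gene. miR-139-5p, from an intron of the phosphodiesterase gene Pde2a, held 960 to 1357 CPM in control and 1553 to 3401 CPM in tKO (0.86, edgeR adjusted p = 0.0861). miR-155-5p, best known from activated immune cells, held 449 to 859 CPM in control and 860 to 1436 CPM in tKO (0.74, edgeR adjusted p = 0.752). miR-872-5p (0.64) and miR-28a-3p (0.36) complete the 6 higher names, both with an edgeR adjusted p of 0.916.

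The 6 lower names taken fall into 2 loci and 1 fragment. miR-296-5p, miR-296-3p and miR-298-5p come from neighbouring hairpins at chr2:174267047-174267125 and chr2:174267504-174267585, by the imprinted Gnas gene. miR-883a-3p and miR-465c-3p come from a cluster on the X chromosome. The reads of miR-509-5p (log2 fold change -2.69, edgeR adjusted p = 0.0861) were in 99.4% a single sequence of 13 nt with a mismatch, and 0.184% of them had none.

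At the Gnas locus the clones lay apart, a difference that with 2 libraries a clone was not tested. miR-298-5p held 691, 564, 432 and 444 CPM in control. Clone C1 held 365 and 385 CPM in replicates 1 and 2, and clone C2 held 42.7 and 23.0 CPM. Clone C1 was thus just below the control range, and clone C2 far below it in both replicates. miR-296-5p followed with 111 to 211 CPM in control, 51.7 and 95.5 CPM in clone C1, and 7.77 and 6.17 CPM in clone C2. miR-296-3p averaged 154 CPM in clone C1 and 10.1 CPM in clone C2. Over both clones the log2 fold changes were -1.47, -1.98 and -1.55, and none passed (edgeR adjusted p = 0.724, 0.384 and 0.724).

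**Figure D3:**
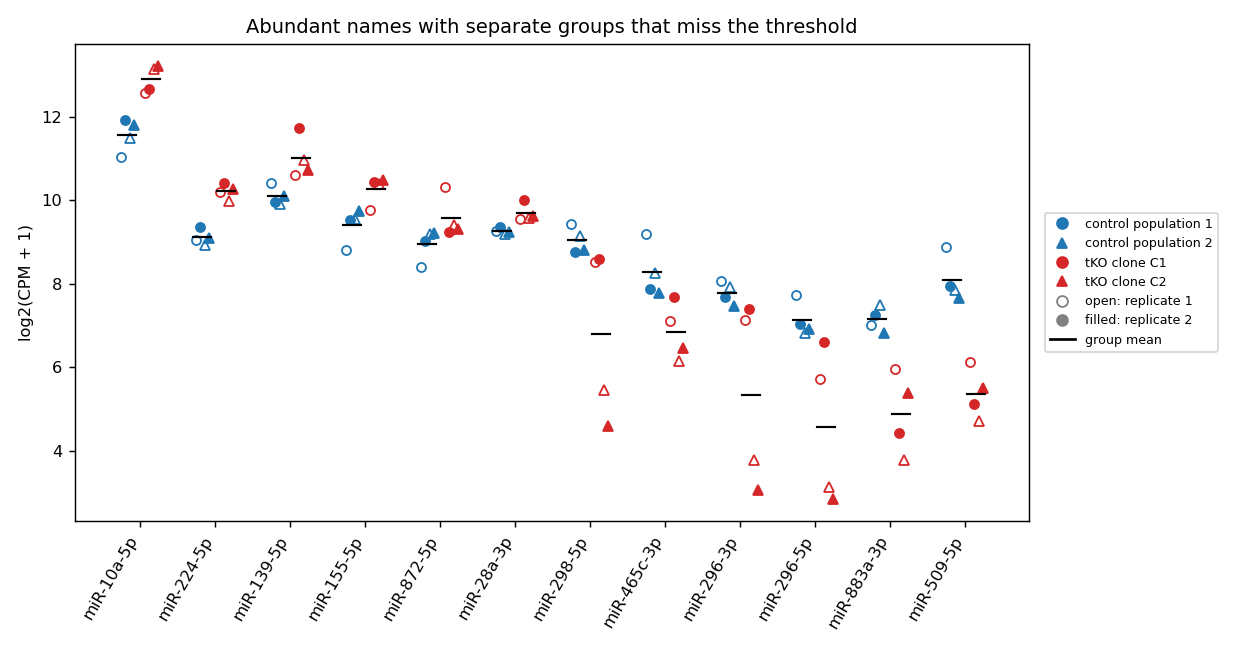
CPM per library of the 6 higher and 6 lower names with the largest fold change among names of at least 100 CPM whose control and tKO libraries did not overlap and whose adjusted p missed 0.05, on a log axis, with clones C1 and C2 marked apart. Clone C2 lies far below clone C1 for miR-296-5p, miR-296-3p and miR-298-5p.

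The X-linked cluster holds fast-evolving miRNAs best known from testis, among them miR-465, miR-470, miR-871, miR-881 and miR-883. Its RefSeq hairpins, 17 in number, lie between 66776760 and 66839121 on chromosome X (GRCm38.p6). All 27 tested names were below 0, against 40.4% of all names, with a median log2 fold change of -1.25. None of the 27 passed edgeR's test, with 20 at an unadjusted p under 0.05, against 76 of all 881 names. The DESeq2 Wald test called 7 of the 27, against 24 of all 881. For 13 of them the groups did not overlap, against 8.17% of all names. The sign held for all 27 with DESeq2 size factors, with total counts and without clone C1 replicate 2. In these 3 fits edgeR called 0, 1 and 2 of the 27, against 12 of 881, 14 of 881 and 15 of 923 of all names.

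Single members show the sizes. miR-871-3p held 2688 CPM in control and 1204 CPM in tKO on average (-1.31, edgeR adjusted p = 0.229). miR-465c-3p held 586, 303, 232 and 219 CPM in control and 136, 69.4, 203 and 86.8 CPM in tKO (-1.51, edgeR adjusted p = 0.0718). miR-883a-3p held 112 to 179 CPM in control and 12.8 to 60.6 CPM in tKO (-2.09, edgeR adjusted p = 0.0643). miR-470-5p averaged 1248 and 553 CPM (-1.30, edgeR adjusted p = 0.0975).

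The clones lay apart here too, with clone C2 the lower, and this was not tested either. Relative to the control mean of each name, the median over the 27 names was 0.618 and 0.636 in clone C1 and 0.215 and 0.343 in clone C2, for replicates 1 and 2. The control libraries gave 0.889 to 1.09. The mean of clone C2 was below that of clone C1 for 26 of 27 names. Summed reads of at least 18 nt without a mismatch went from 7321 ± 1336 CPM in control to 3251 ± 1789 CPM in tKO (SD, n = 4), and the groups did not overlap. Of the 51 tested names on the X chromosome outside this cluster 32 were below 0, with a median of -0.12. After differentiation the median of the 27 names was -0.14, with 18 below 0.

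**Figure D4:**
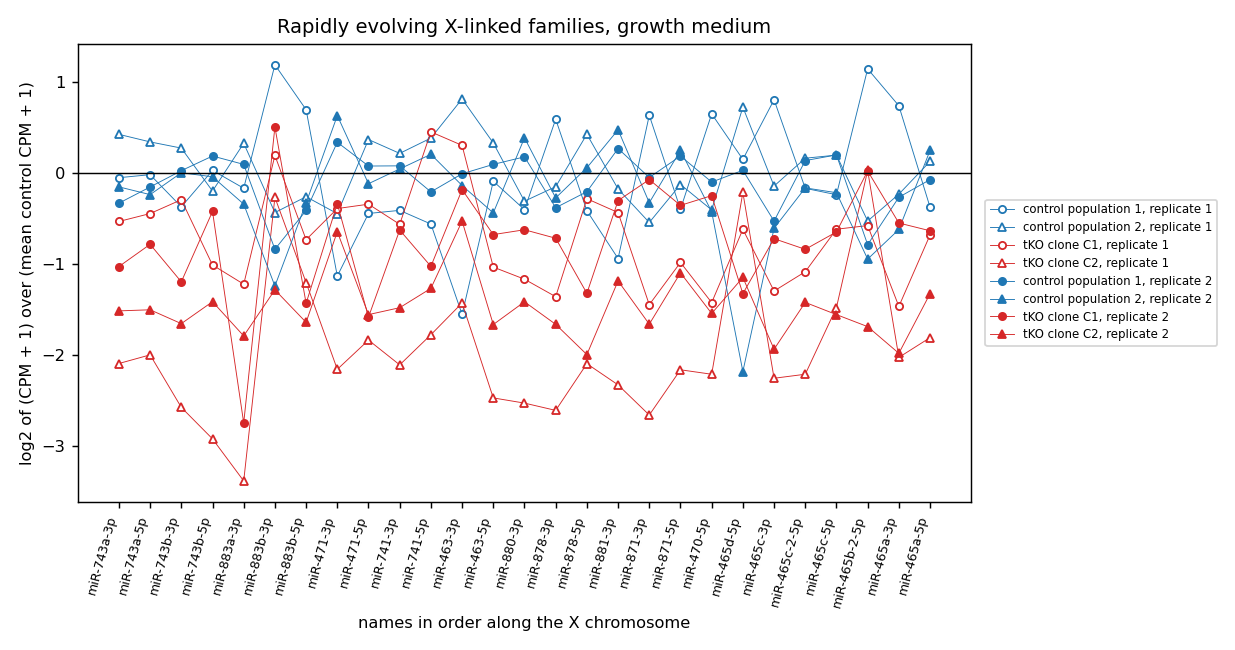
Level of the X-linked cluster names in each growth-medium library, as log2 of (CPM + 1) over (mean control CPM + 1) of each name. Each name has a point per library, and the points of a library are joined by a line. The medians of the plain CPM ratios, which are not drawn, are 0.618 and 0.636 in clone C1 and 0.215 and 0.343 in clone C2.

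The most abundant names did not pass the test. miR-21-5p, a miRNA common in growing and injured cells, held 72233, 143410, 128160 and 149130 CPM in control and 219310, 135140, 98140 and 124850 CPM in tKO (log2 fold change 0.22). Clone C1 alone spanned more than the control libraries did. miR-99b-5p, let-7c-5p, let-7i-5p and miR-30d-5p, the next in order, had log2 fold changes of -0.04, -0.31, 0.12 and -0.05.

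Lists for proliferation, for leaving the cell cycle and for myoblast regulation held no edgeR or DESeq2 call, with 2 of their 50 tested names at an unadjusted edgeR p under 0.05. Of all 881 names edgeR called 12 and DESeq2 called 24, and 76 were at an unadjusted edgeR p under 0.05. The miR-17-92 and miR-106b-25 clusters, which promote proliferation, had 5 of 9 tested names below 0 and a median log2 fold change of -0.11, which turned to 4 of 9 and 0.06 without clone C1 replicate 2. Of the let-7 family, which restrains it, 4 of 9 were below 0 (median 0.12, and 0.32 without that library). The list of miRNAs tied to exit from the cell cycle had 11 of 11 names below 0 (median -0.45), which became 9 of 11 with DESeq2 size factors. Without the same library it was 7 of 11 with a median of -0.23. Its summed level was 7771 to 8336 CPM in control and 5147 to 7510 CPM in tKO, without overlap. Taken singly, 0 of the 11 names had groups without overlap, against 8.17% of all names. Reads of the list of at least 18 nt without a mismatch summed to 6729.7 to 7151.5 CPM in control. In tKO they summed to 4526.5 and 4577.2 CPM in clone C1 and 6176.2 and 6525.8 CPM in clone C2, for replicates 1 and 2. Of other known myoblast regulators 13 of 21 were below 0 (median -0.19), and for 3 of 21 the groups did not overlap, against 8.17% of all names.

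The Dlk1-Dio3 cluster, an imprinted run of many miRNA hairpins active in embryonic tissues, had 11 of 13 tested names above 0, against 59.6% of all names. None was called by edgeR, against 1.36% of all names, and 0 by DESeq2. At an unadjusted edgeR p under 0.05 there was 1 of the 13, against 76 of all 881 names. Its median of 0.76 became 0.18 without clone C1 replicate 2. Reads of at least 18 nt without a mismatch made up at most 0.57% of the reads under its names in any library, so nearly all of them were fragments or altered sequences.

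Markers of other cell types were checked, since fewer cells of a type and less miRNA per cell cannot be told apart in bulk RNA. Of the brain list, miR-9-5p was lower and miR-129-5p higher, while miR-128-3p (0.11) and miR-218-5p (-0.68) were not called, so brain markers did not move together. The smooth muscle and fibroblast markers miR-143-3p and miR-145a-5p summed to 21494 to 41276 CPM in control and 40771 to 58501 CPM in tKO, with log2 fold changes of 0.48 and 0.30 and no call. Endothelial names summed to 14.1 to 27.9 CPM in control and 2.42 to 15.8 CPM in tKO, and miR-126a-3p had a log2 fold change of -1.48 (edgeR adjusted p = 0.254), a call among reads without mismatch. Epithelial names summed to 15.6 to 27.9 CPM in control and 21.1 to 59.2 CPM in tKO, and the 3 tested ones, miR-200b-3p, miR-200c-3p and miR-205-5p, had log2 fold changes of 1.46, -0.07 and -1.08 with no call. The groups of miR-200b-3p, at 3.53 and 10.5 CPM on average, did not overlap. Blood names summed to 4.72 to 7.9 CPM in control and 2.78 to 16.3 CPM in tKO. The part of these markers in the differences above was not tested.

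**Figure D5:**
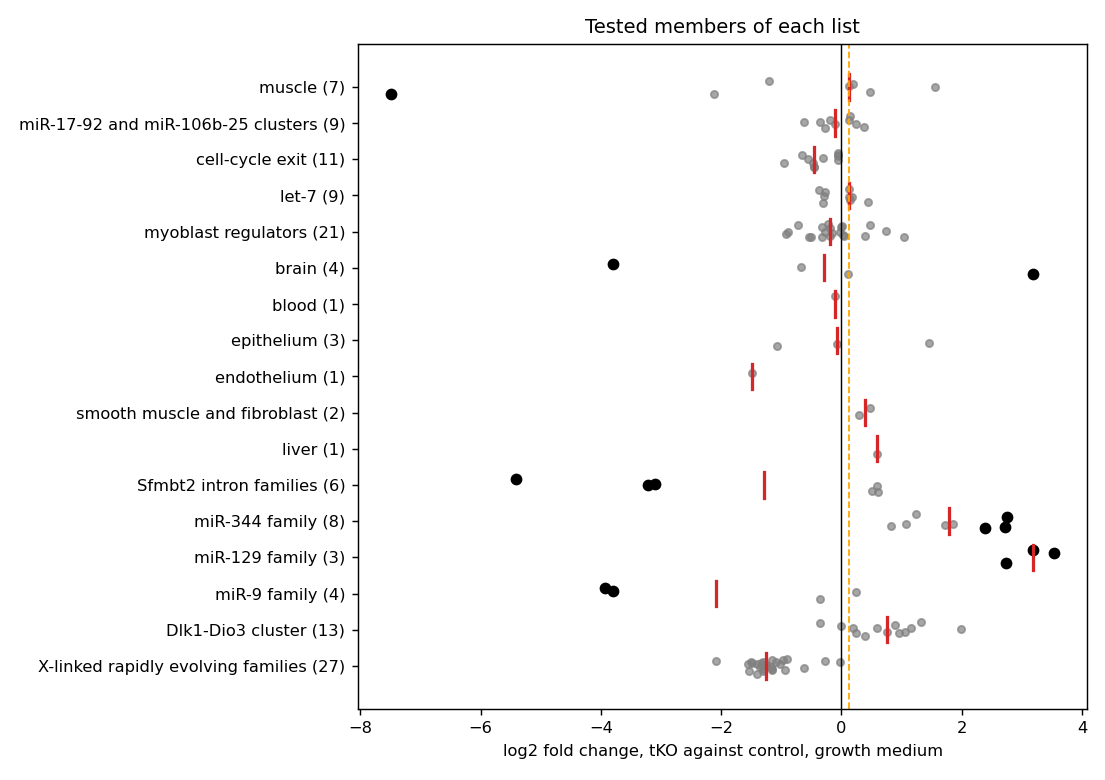
Log2 fold change, tKO over control in growth medium, of each tested member of the miRNA lists, with called members marked and the median of each list drawn. The X-linked names all lie below 0 and the miR-344 and miR-129 names all above it.

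The form of the reads was compared as well, by 4 measures per library with 2-sided exact permutation tests over 70 assignments. Reads with added bases at the 3′ end made up 29.4% ± 2.02 of control and 28.2% ± 2.09 of tKO (SD, n = 4, exact p = 0.4571), a difference of -1.21 points that ran from -2.16 to -0.286 with 1 library left out. Reads of exactly 22 nt made up 37.4% ± 0.545 and 35.6% ± 1.10, a difference of -1.822 points (exact p = 0.0286, adjusted over the 4 measures 0.1144). That difference became 0.422 points when names that never show an exact mature sequence were left out. The share of the 10 leading names, 41.1% ± 1.64 and 42.8% ± 5.65, did not differ past the spread (exact p = 0.6857), nor did the share of reads under 18 nt (exact p = 0.4857), whose difference of 1.052 points became 0.022 without clone C1 replicate 2.

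Whether the differences in GM also depended on the medium was tested as an interaction over all 16 libraries. None of 881 names and none of 681 seed families passed (lowest edgeR adjusted p of 0.709 and 0.152), with 42 names and 29 families at an unadjusted p under 0.05 and 0 of either by DESeq2. The log2 fold changes after differentiation had the sign of those in GM for all 12 called names. For miR-206-3p the difference between tKO and control was -11.78 in DM3 and -7.49 in GM, an interaction of -4.29 (edgeR, SE 1.17, adjusted p = 0.709). For miR-9-5p it was -2.46 and -3.80, and for miR-344d-3p it was 2.37 and 2.75. The groups in DM3 are other libraries of the same lines, and so are not independent lines either.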

How the data were processed

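Small RNA libraries were made from total RNA with adapter ligation and gel selection, per the labels' protocols. The submitters' processing notes list cutadapt 1.15, STAR 2.5.4 and mm10, with no role. The deposited tables are unitas output, per the file headers, and give expected counts per sequence under a miRNA name, without normalization; the unitas version and miRBase release are not given in the sources used here. Expected counts were summed per name after removing text in parentheses (2510 names) and rounded to whole counts. The 4 groups of all 16 libraries were fitted together in R 4.3.3 by edgeR 4.0.16, after filterByExpr with a smallest count of 10 and TMM scaling, and tested by robust quasi-likelihood F tests. An adjusted p under 0.05 is a call. The SE given with edgeR values is the absolute log2 fold change divided by the square root of the F statistic. It is therefore not independent of the p-value. CPM uses the library total. Seed families sum names by bases 2 to 8, from RefSeq (1435 names) or else from the deposited sequences (677 names). Hairpin positions are from RefSeq on GRCm38.p6 and host genes from GENCODE M21. Single values were tested by exact permutation in Python 3.11.15 with scipy 1.17.1.

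Named are all calls, their other arms and seed partners of 10 CPM or more, the 5 most abundant control names, up to 6 names a side of 100 CPM or more without overlap, the tested names of the muscle list, and up to 4 members of other lists. Names outside this rule, such as the low relatives of miR-467, were chosen after their values were seen. The comparison, the members and the lists were chosen with earlier results of these data known. Counts were simulated for all 16 libraries, with known changes in tKO GM. Of these changes, 19.4%, 79.1% and 92.4% were recovered at log2 fold changes of 1, 2 and 4, over 854 features. Of 662 unchanged names, 4 were called. The draws used the mean of each name over both media and genotypes, and independent libraries without the lines of a group. The rates therefore do not cover that structure. Alternatives covered scaling, filters, DESeq2 1.42.0, blocks, sums per line, merged names, read form and omitted libraries. Without molecular identifiers, intervals and limits cover counting error only.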

Additional observations from a re-analysis of the deposited data

Results flagged for a closer look

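In 9 of 82 groups of 4 libraries examined, 1 library lay far from the other 3 by Dixon's criterion. Chance gives this in about 1 of 20 groups of independent, normally distributed values. The groups here include versions and arms of the same strands and are not independent, so the 2 rates cannot be compared directly. Among called names, miR-9-5p was highest in control population 2 replicate 1 at 61.1 CPM, and miR-129-2-3p was lowest in control population 1 replicate 1 at 0 CPM. Control population 1 replicate 1, the smallest of the 8 libraries, was also highest of its group for miR-509-5p at 466 CPM and for miR-99b-5p at 66712 CPM. In tKO, clone C1 replicate 1 was lowest for miR-155-5p at 860 CPM and highest for miR-872-5p at 1263 CPM. Clone C1 replicate 2, the library with most short reads, was highest for miR-28a-3p at 1022 CPM and for miR-1a-3p at 0.51 CPM. miR-133a-3p had reads in 1 control library, population 1 replicate 2, at 0.363 CPM. For this name in control and miR-1a-3p in tKO the other 3 libraries held no reads, which meets the criterion by itself.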

How the results depend on the processing

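The 12 called names became 21 with almost no filter, 24 with the DESeq2 Wald test, 21 with replicates summed per line, 22 with reads without mismatch, 20 with reads of 18 to 25 nt, and 3 or 4 with replicate number 1 or 2 alone. Leaving out 1 library gave 7 to 19 names, with 7 without either replicate of control population 2 and 19 without clone C1 replicate 1. A fit without the DM3 library of clone C1 replicate 1, added after the data were seen, gave 19. The 10 seed families became 20 by the Wald test, 23 per line and 2 or 4 with replicate 1 or 2 alone, and 4 to 17 with 1 library left out, with 4 without clone C2 replicate 2 and 17 without clone C1 replicate 1. Same-numbered libraries of the 2 groups had deviations that correlated at -0.156 to 0.432, with 6 of 8 pairs over 0.1 and a mean of 0.19. Other-numbered libraries had 1 of 8 pairs over 0.1 and a mean of -0.185. Deviations from a group mean cancel out within the group, which ties this mean to the first, so it is not a separate observation. The numbers were to be taken as pairs only with every pair over 0.1, so the block stands as an alternative. The replicate block gave 13 names, all 12 called ones among them, and 11 families.

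For single values, leaving out names that never show an exact mature sequence turned the difference in 22-nt reads to 0.422 points and that of the 10 leading names to -0.167. The replicate block kept -1.822 points for 22-nt reads and -7.601 for miR-206-3p, each with an exact permutation p of 0.0556, where 36 assignments allow no less. With 1 library left out, the 22-nt difference ran from -2.217 to -1.375, that of the leading names from -0.772 to 3.79, miR-206-3p from -8.104 to -7.039, miR-1a-3p from -0.208 to 0.02, miR-133a-3p from 0.373 to 0.761 and miR-133b-3p from -1.566 to -0.685. Merged names gave -1.497 for miR-1a-3p (exact permutation p = 0.0286) and -0.921 for miR-133a-3p. The log2 fold change changed sign for miR-872-5p (-0.16, replicate 2 alone), miR-133a-3p (-1.45, merged names), and miR-486b-5p and miR-499-5p, both without clone C2 replicate 1. With 1 library left out these ran from -0.10 to 0.22 and from -0.02 to 0.82. Of the other values of single names and families, 820 kept their direction and side of the threshold, 71 lost the call and 39 gained one. Over all names the median log2 fold change was 0.17 with DESeq2 size factors, 0.22 with total counts and 0.03 without clone C1 replicate 2. The causes were not tested. Depth limits names under about 6 CPM in the smallest library.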

Other observations

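Reads without a mismatch, counted alone and tested by edgeR in the same design, gave 22 calls among 551 names tested, 10 of them shared with the 12 calls of the full tables. Among the listed miRNAs these included miR-344 names beyond the called ones, 6 of the 8 tested against 3 in the full tables, and 3 of 25 X-linked names. In the full tables edgeR called none of the X-linked names and the DESeq2 Wald test 7 of 27. The endothelial miR-126a-3p, at 20.5 CPM in control and 8.18 CPM in tKO, passed in this read set (log2 fold change -1.96, edgeR adjusted p = 0.0196) but not in the full tables by edgeR or DESeq2, and whether other cells contribute it was not tested.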
